A study of Mus musculus with 62 samples.

Results

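The 32 genes described here make, sense and move cholesterol. They were taken by mouse Entrez identifier from the tables of 3 tissues, which hold 18821 genes in all. They comprise 4 regulators of sterol synthesis, 19 enzymes of the pathway, 5 genes of uptake, transport inside the cell or storage, and 4 efflux transporters. Of these, 31 are listed in liver, 30 in prefrontal cortex and 31 in striatum. A filter on low counts left 31, 29 and 28 to be tested: liver lacked Npc1l1, prefrontal cortex lacked Abcg5, Abcg8 and Fdps, and striatum lacked Abcg5, Abcg8, Fdps and Npc1l1.

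The libraries are RNA-seq of female C57BL/6 mice given the MARBLES mixture by mouth. MARBLES is a mixture of polychlorinated biphenyls (PCBs), persistent industrial chemicals, made to resemble the PCB profile of a human pregnancy cohort. Doses were 0 (vehicle), 0.1, 1 and 6 mg/kg, with 4, 4, 6 and 6 liver libraries and 4, 5, 6 and 6 libraries from each of prefrontal cortex and striatum. All groups share strain and sex and no group carries a transgene. The age of the mice, the number of doses and the time of killing are not given in the sources used here, and neither is a statement that each library is a different mouse. The p-values therefore measure the spread between these libraries. The question the design poses is how the liver and brain transcriptomes change with PCB dose.

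Cells make cholesterol from acetyl-CoA through mevalonate and squalene. When membrane sterol is low, SCAP carries SREBP-2, the product of Srebf2, from the endoplasmic reticulum to the Golgi, where it is cut into an active transcription factor for the enzyme genes. INSIG proteins hold SCAP back when sterol is plentiful. Liver X receptors, which sense oxysterols, switch on the efflux transporters, among them ABCG5 and ABCG8, which pair to pump sterols into bile. The brain makes its own cholesterol, much of it for myelin, since lipoproteins do not cross the blood-brain barrier.

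Total counts per library were 7.38 to 10.2 M in liver, 8.72 to 12.1 M in prefrontal cortex and 8.28 to 12.02 M in striatum. Liver libraries carried their markers: all 5 hepatocyte markers were listed there and summed to between 55890 and 133333 CPM. Hepatocyte markers summed to at most 6.83 CPM in prefrontal cortex and 6.07 CPM in striatum. The 5 striatal neuron markers summed to between 516 and 1662 CPM in prefrontal cortex and between 1505 and 3874 CPM in striatum, so these ranges overlap. In prefrontal cortex the 4 cortical neuron markers summed to between 1279 and 2238 CPM. Between striatum libraries the 4 cortical neuron markers summed to between 62.4 and 1606 CPM and the choroid plexus markers to between 7.48 and 4285 CPM. In bulk tissue, fewer cells of a type and less RNA per cell cannot be told apart. CPM is a gene's count divided by its library's total in M, and CPM values are scaled by TMM (trimmed mean of M-values) factors, and "called" means an adjusted p under 0.05 in edgeR's quasi-likelihood test over all genes of the tissue.

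In vehicle mice the synthesis pathway was far more abundant in liver than in prefrontal cortex. Of 29 members tested, 28 were called (24 higher and 4 lower in liver), beside 84.9% of all genes in that comparison. All 11 enzymes from squalene to cholesterol were higher in liver, with a median log2 difference of 2.72, against -0.19 over all genes. CPM were scaled within each tissue, whereas the tests between tissues scaled the libraries of both tissues together. Ratios of the CPM printed for 2 tissues therefore differ from the log2 differences tested. Ebp, the sterol isomerase, differed most, with 363 ± 58.4 CPM in liver and 13.7 ± 1.56 CPM in prefrontal cortex (SD, n = 4 each; log2 difference 5.66 ± 0.17 SE, edgeR adjusted p = 2.1e-12). Tm7sf2, a sterol reductase, followed at 285 ± 55.8 against 16.0 ± 3.404 CPM (5.08 ± 0.21, edgeR adjusted p = 2.3e-11), and Sc5d, the sterol desaturase, had a log2 difference of 4.52 ± 0.19 (edgeR adjusted p = 3.7e-11).

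The 4 members lower in liver were Abcg1, an exporter of cholesterol to lipoproteins, Soat1, which esterifies cholesterol for storage, Ggps1, which makes geranylgeranyl diphosphate for protein prenylation, and Srebf2. Abcg1 stood at 6.87 ± 0.54 CPM in liver and 97.0 ± 6.96 CPM in prefrontal cortex (log2 difference -2.88 ± 0.12, edgeR adjusted p = 4.0e-11). For Soat1 and Ggps1 the log2 differences were -2.49 ± 0.16 and -1.73 ± 0.16. Mylip, a ubiquitin ligase acting on lipoprotein receptors, was not called (0.26 ± 0.17, edgeR adjusted p = 0.17).

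Between the 2 brain regions 11 of 28 members were called, beside 22.2% of all genes. In striatum 8 were lower, all of them synthesis enzymes but Stard4, a cytosolic sterol carrier, and 3 transporters were higher. Hmgcs1, which makes HMG-CoA, was lowest relative to cortex (log2 difference -0.73 ± 0.11, edgeR adjusted p = 0.00035), followed by Sqle, squalene epoxidase (-0.55 ± 0.10, adjusted p = 0.0014), and Hsd17b7 (-0.52 ± 0.13, adjusted p = 0.012). Abca1, which loads cholesterol onto apolipoprotein A-I, was higher by 0.47 ± 0.10, Npc1, which exports cholesterol from lysosomes, by 0.33 ± 0.09 and Abcg1 by 0.31 ± 0.09. Without the libraries of vehicle animals 3, 4 or 7 in turn, 5, 7 and 4 members were called, and the count over all genes went from 3229 to 1760, 2328 and 1731. Striatal neuron markers summed to between 621 and 1662 CPM in vehicle cortex and between 1641 and 3800 CPM in vehicle striatum. For cortical neuron markers the sums were 1750 to 2161 CPM and 71.3 to 1091 CPM. The part of these markers in the differences was not tested.

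Levels per kilobase of exon used the length of each gene's longest annotated transcript. Exon overlaps with other genes used the exon bases of all its transcripts. Per kilobase, the most abundant members in vehicle liver were Ebp at 208 ± 33.5, Insig1 at 206 ± 52.6, Hmgcs1 at 198 ± 84.7 and Sc5d at 175 ± 35.3 CPM per kb (SD, n = 4). These overlap within their spread. Soat1 at 0.350 ± 0.045 CPM per kb was the least abundant tested member there. In prefrontal cortex the order began with Hmgcs1 at 90.2 ± 9.97 and Srebf2 at 72.4 ± 5.18 CPM per kb, and in striatum with Srebf2 at 69.8 ± 9.67 and Hmgcs1 at 57.5 ± 5.42 CPM per kb. Fdps, which makes farnesyl diphosphate, read only 5.52 ± 0.97 CPM in vehicle liver, and 26.7% of its annotated exon bases overlap a second gene model on the same strand, so its counts are uncertain. Of the exon bases of Fdft1, 18.3% overlap Ctsb on the opposite strand, which bears on its counts only where strand was ignored, and whether it was is not stated. In the plot of vehicle levels each tissue is on its own scale. The liver points lie above the brain points for nearly every enzyme and below them for Srebf2, Ggps1, Soat1 and Abcg1.

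**Figure D1:**
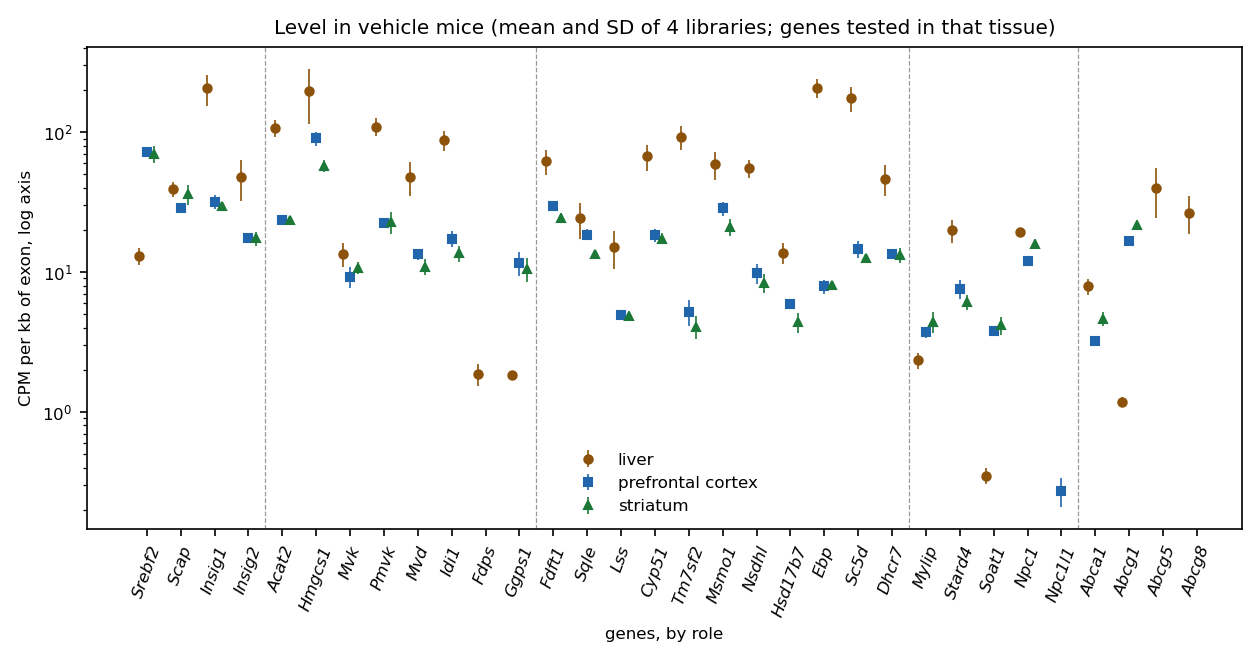
CPM per kb of exon (log axis) of each gene in vehicle mice, by role, as mean and SD of 4 libraries for liver (circles), prefrontal cortex (squares) and striatum (triangles). Ebp stands at 208 in liver and 7.88 in prefrontal cortex, while Srebf2 stands at 13.0 and 72.4. CPM are scaled within each tissue, so heights are not on one scale across tissues. Exon length is that of the gene's longest annotated transcript.

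In the liver at 6 mg/kg, 1 of 31 members was called, beside 2.8% of all genes: 1 higher and 0 lower, beside 1.8% and 0.995%. The gene was Abcg5. At an unadjusted p under 0.05 there were 7 members, 1 higher and 6 lower, against 24.2% of all genes. DESeq2 called 2 members, Abcg5 higher and Nsdhl lower. The median log2 difference of the members was -0.35, against 0.02 over all genes, with 25 of 31 below 0 and 48.1% of all genes below 0. No member separated all 6 livers at 6 mg/kg from all 4 vehicle livers, beside 3.26% of all genes higher and 3.5% lower without overlap.

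Abcg5 read 60.9, 65.4, 115 and 136 CPM in the vehicle livers and 84.8, 112, 136 and 143 CPM at 0.1 mg/kg. At 1 mg/kg it ranged from 96.3 over a median of 133 to 180 CPM, and at 6 mg/kg from 129 over a median of 178 to 290 CPM. The lowest liver at 6 mg/kg, animal 56, lies below the highest vehicle liver, animal 8 at 136 CPM, and the other 5 lie above all vehicle livers. Abcg5 rose 2.09-fold at 6 mg/kg (log2 difference 1.06 ± 0.27 SE, n = 6 against 4, edgeR adjusted p = 0.041). It did not pass at 1 mg/kg (0.50 ± 0.27, edgeR adjusted p = 0.61) or 0.1 mg/kg (0.34 ± 0.29, edgeR adjusted p = 0.99), nor between 6 and 0.1 mg/kg (0.72 ± 0.27, edgeR adjusted p = 0.28).

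Over the 4 doses taken as ranks, 2 of 31 members had a slope that was called, beside 4.81% of all genes (1 up and 1 down, beside 2.85% and 1.96%). Abcg5 rose by 0.34 ± 0.08 on the log2 scale per dose step (edgeR adjusted p = 0.025), and Nsdhl, a dehydrogenase that helps remove the C4 methyl groups of sterols, had a slope of -0.23 ± 0.06 (edgeR adjusted p = 0.043). For the slope 7 members had an unadjusted p under 0.05, against 25.4% of all genes, and DESeq2 called 3 slopes, adding Acat2. The call of Abcg5 at 6 mg/kg was lost without animal 52, 53, 54 or 58 of the dosed livers or without animal 3, 4 or 7 of the vehicle livers (adjusted p from 0.053 to 0.16), and with the GC and length offset (0.061) or the 2 groups fitted alone (0.092). Its slope lost the call without animal 52 or 58 or vehicle animal 3 or 4, and with the clock ratio described next as covariate. The slope of Nsdhl lost its call without any single vehicle liver (edgeR adjusted p from 0.076 to 0.10) and without animal 52, 53, 54 or 58 (0.064 to 0.096). It also lost it without animal 23, 28, 29, 45 or 50 (0.051 to 0.057), and the clock ratio left it at -0.11 (0.74). The same call was lost with a surrogate variable, the GC and length offset, no filter on low counts and a slope over mg/kg.

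Vehicle and dosed livers also differed in their clock genes. The log2 ratio of Dbp, a clock output gene, to Arntl, a core clock gene, was 2.05, 2.49, 5.19 and 5.45 in vehicle livers 3, 4, 7 and 8, and 5.77 to 8.61 in all 16 dosed livers, with no overlap. With this ratio as a covariate the log2 difference of Abcg5 at 6 mg/kg was 0.21 ± 0.37 (edgeR adjusted p = 1.0) and no gene of the 12968 was called. The part of the clock genes in the Abcg5 result was not tested further, since ratio and dosing cannot be told apart here. The rank correlation of a library's gene deviations with GC content lay between -0.28 and -0.16 in vehicle livers and between -0.02 and 0.24 at 6 mg/kg. Its part was tested only through the offset above.

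Abcg8, the partner of Abcg5, read 67.1, 77.8, 121 and 124 CPM in vehicle livers and 89.96, 91.4, 101 and 110 CPM at 0.1 mg/kg. It ranged from 58.9 over a median of 131 to 140 CPM at 1 mg/kg and from 104 over a median of 116 to 162 CPM at 6 mg/kg. Its log2 difference was 0.34 ± 0.22 (95% interval -0.12 to 0.80, edgeR adjusted p = 0.35), and it overlapped vehicle throughout. The animals with the highest Abcg5 at 6 mg/kg, 52 and 58, had 114 and 104 CPM of Abcg8, while animals 55 and 56, lowest for Abcg5, had the highest Abcg8 at 162 and 137 CPM. The 2 genes are neighbours on chromosome 17 and are read in opposite directions. Their exons overlap by 82 bases in the GENCODE annotation, 3.02% of the exon bases of Abcg5, and since counting by strand is not stated, reads there cannot be assigned. RefSeq gives Abcg8 2 starts, and from the one at base 84676302, inside Abcg5 (84658174 to 84683011), the genes overlap. The 109 bases between the start of Abcg5 and the other start of Abcg8 (GRCm38.p6, chr17:84683012-84683120, strand of Abcg8) are shown because they lie upstream of both of these starts. They hold none of the 4 motifs searched below, so no letter is in capitals.

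Abcg5 and Abcg8 interval: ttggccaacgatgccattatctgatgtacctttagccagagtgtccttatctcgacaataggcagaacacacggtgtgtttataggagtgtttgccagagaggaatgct

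Abca1 and Abcg1, the other efflux transporters, had log2 differences of -0.07 ± 0.19 and 0.00 ± 0.26 at 6 mg/kg in liver. Of 6 tested liver X receptor genes and further targets, 0 were called at 6 mg/kg by edgeR and 2 had an unadjusted p under 0.05. Over all genes these shares were 2.8% and 24.2%. Of all 46 other pathway genes tested, 0 were called at 6 mg/kg by edgeR and 13 had an unadjusted p under 0.05, 7 higher and 6 lower, against the same shares of all genes. Lpcat3, a liver X receptor target that builds polyunsaturated phospholipids, was the 1 of these 46 whose slope over dose was called, beside 4.81% of all genes (0.16 ± 0.05 per dose step, edgeR adjusted p = 0.045). Its level was 97.7 ± 8.86 CPM in the 4 vehicle livers, 87.7 ± 4.05 CPM in the 4 given 0.1 mg/kg, 122 ± 15.2 CPM in the 6 given 1 mg/kg and 126 ± 10.4 CPM in the 6 given 6 mg/kg (SD). The level at 0.1 mg/kg thus lay below that of vehicle livers.

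**Figure D2:**
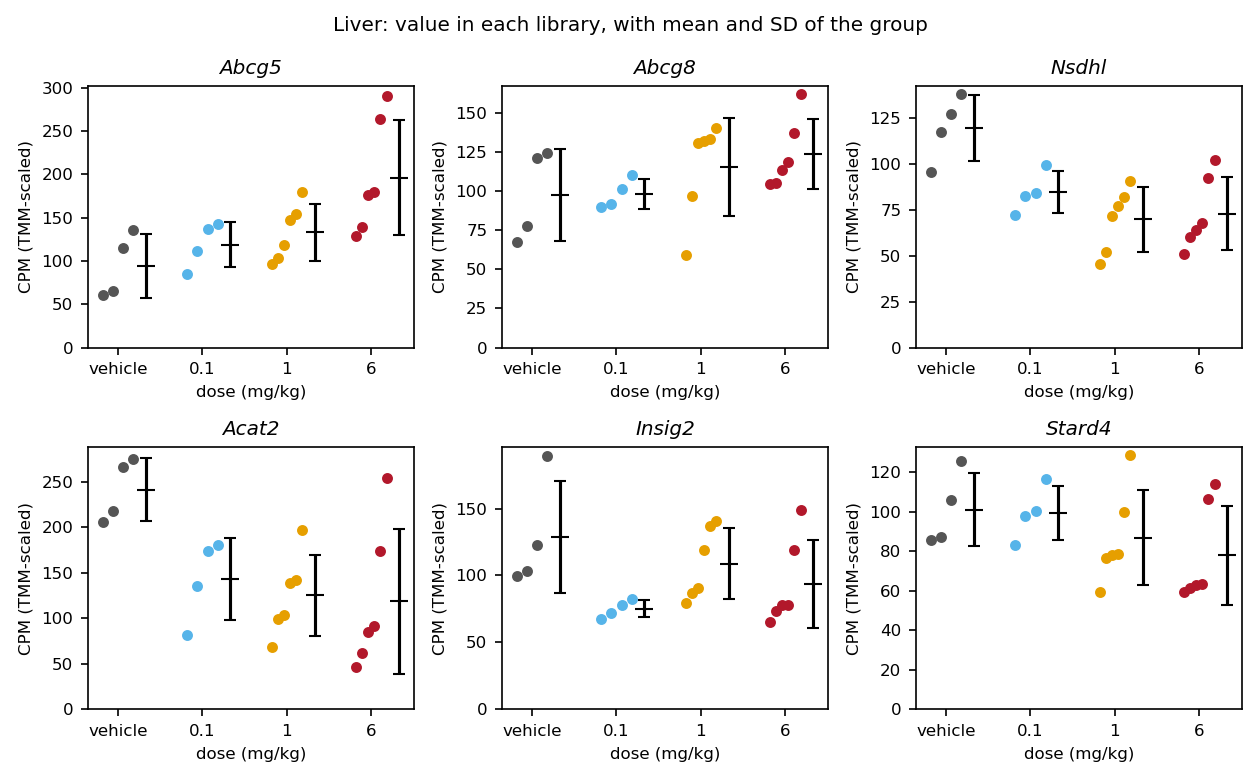
CPM of 6 genes in each liver library by dose (points), with the mean and SD of each group beside them (black). Abcg5 reaches 290 at 6 mg/kg, with its lowest point below the highest vehicle point, and Nsdhl, Acat2, Insig2 and Stard4 each show 2 libraries at 6 mg/kg well above the other 4.

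All 8 mevalonate and isoprenoid enzymes and all 11 squalene-to-cholesterol enzymes had log2 differences below 0 in liver at each dose. At 6 mg/kg the medians of the 2 groups were -0.47 and -0.46 on the log2 scale, with differences from -1.04 (Pmvk) to -0.13 (Hmgcs1). At 1 mg/kg the medians were -0.77 and -0.48, and at 0.1 mg/kg -0.67 and -0.42. Over all genes the medians at 6, 1 and 0.1 mg/kg were 0.02, 0.02 and -0.0014. These 3 comparisons share the 4 vehicle livers, so they are not independent. Of the 19 enzymes 0 were called at any dose by edgeR and only Nsdhl at 6 mg/kg by DESeq2. Against the livers at 0.1 mg/kg, those at 6 mg/kg had 8 of the 19 enzymes above and 11 below 0, with medians of 0.16 and -0.06, and 0 members were called there by edgeR or DESeq2, beside 0.0386% of all genes. Only Abcg5 had an unadjusted p under 0.05, against 12.8% of all genes.

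Acat2, which joins acetyl-CoA units at the head of the pathway, read 205, 218, 267 and 275 CPM in vehicle livers and 82.1, 136, 174 and 181 CPM at 0.1 mg/kg. It ranged from 68.4 over a median of 121 to 197 CPM at 1 mg/kg and from 46.9 over 87.7 to 254.5 CPM at 6 mg/kg. All livers at the 2 lower doses lay below all vehicle livers, while animal 56 at 6 mg/kg lay among them. The log2 difference at 6 mg/kg was -1.02 ± 0.37 (edgeR adjusted p = 0.11). Without animal 56 it was -1.40 (edgeR adjusted p = 0.018).

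Nsdhl read 95.4, 117, 127 and 138 CPM in vehicle livers and 72.1, 82.4, 84.1 and 99.6 CPM at 0.1 mg/kg. It ranged from 45.6 over a median of 74.3 to 90.8 CPM at 1 mg/kg, below every vehicle liver, and from 50.9 over 66.0 to 102 CPM at 6 mg/kg, where animal 56 exceeded the lowest vehicle liver. Its log2 differences were -0.50 ± 0.23, -0.77 ± 0.20 and -0.71 ± 0.20 with rising dose (edgeR adjusted p = 0.99, 0.38 and 0.058). Without animal 55 or 56 it was called at 6 mg/kg (-0.79 and -0.83, edgeR adjusted p = 0.030 and 0.020).

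Of the mevalonate steps at 6 mg/kg, Pmvk and Idi1 had log2 differences of -1.04 ± 0.44 and -0.98 ± 0.38, while Mvk, mevalonate kinase, and Mvd, mevalonate diphosphate decarboxylase, had -0.15 ± 0.38 and -0.22 ± 0.37. Of the later steps, Cyp51 had -0.89 ± 0.36, Tm7sf2 -0.66 ± 0.33, Sc5d -0.53 ± 0.30, Sqle -0.47 ± 0.40 and Ebp -0.46 ± 0.21. Msmo1, which oxidises the C4 methyl groups, Dhcr7 and Hsd17b7 lay between -0.42 and -0.35, and Fdft1, squalene synthase, and Lss, lanosterol synthase, at -0.21 ± 0.23 and -0.17 ± 0.31. The smallest adjusted p among these was 0.13, for Idi1 (edgeR).

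At 1 mg/kg, 0 of 31 members were called by edgeR or DESeq2, beside 0% of all genes, and 7 had an unadjusted p under 0.05, all lower, against 8.44% of all genes (3.31% lower). In 5 members (Acat2, Pmvk, Idi1, Fdps and Nsdhl) all 6 livers at 1 mg/kg lay below all 4 vehicle livers, beside 0.74% of all genes lower without overlap. At 0.1 mg/kg, 0 of 31 were called by either tool, beside 0.0154% of all genes, and 3 had an unadjusted p under 0.05 (Hmgcs1, Nsdhl and Insig2, all lower), against 4.1% (1.53% lower). Lower than all vehicle livers in every liver at 0.1 mg/kg were 5 members (Acat2, Pmvk, Idi1, Cyp51 and Insig2), beside 1.99% of all genes.

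The livers at 6 mg/kg split within the group. Idi1, isopentenyl diphosphate isomerase, read 256 and 270 CPM in animals 55 and 56, within the vehicle range of 214 to 318 CPM, and 56.3, 66.7, 74.5 and 82.6 CPM in animals 54, 53, 58 and 52. Cyp51, lanosterol demethylase, read 242 and 283 CPM in animals 55 and 56 and 67.7 to 95.1 CPM in the other 4, against 214 to 315 CPM in vehicle livers. Pmvk, phosphomevalonate kinase, read 76.9 and 166 CPM in animals 55 and 56 and 21.2 to 40.3 CPM in the others, against 115 to 158 CPM in vehicle livers. For Pmvk animal 55 thus lay below all vehicle livers and animal 56 above them. Animals 55 and 56 were the 2 highest of the 6 livers for 16 of the 19 enzymes. The exceptions were Hmgcs1, Ggps1 and Ebp. The share of all genes highest in animals 55 and 56 was not computed, so this count is not shown to be particular to the enzymes. Idi1, Cyp51, Pmvk and the split were picked out after their values were seen.

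As one value per library, the mean log2 deviation of the 19 enzymes from their mean over the 20 livers was 0.25, 0.31, 0.73 and 0.78 in vehicle livers 3, 4, 7 and 8. At 6 mg/kg it was 0.84 and 0.42 in animals 56 and 55 and between -0.65 and -0.42 in the other 4. It ranged from -0.32 to 0.24 at 0.1 mg/kg and from -0.56 to 0.26 at 1 mg/kg. The median coefficient of variation of an enzyme within a group was 19.8% in vehicle livers and, with rising dose, 25.9%, 33.4% and 54.4% in dosed livers.

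The number of members called at 6 mg/kg changed with single libraries. Without animal 56 there were 7, namely Abcg5 higher and Acat2, Pmvk, Idi1, Cyp51, Tm7sf2 and Nsdhl lower, and without animal 55 there were 3. The same fits called 1302 and 1029 genes in all, against 363 with every library, so the count over all genes moved with the members' count. Without animal 52, 53, 54 or 58, or vehicle animal 3, 4 or 7, there were 0 members called, in fits that called between 3 and 227 genes in all. Animals 55 and 56 had clock ratios of 7.06 and 6.58, the lowest 2 of their group, and the other 4 had 7.53 to 8.48. With that ratio as covariate the median log2 difference of the enzymes at 6 mg/kg was -0.22, and with the GC and length offset -0.41. The part of the clock genes in the split was not tested. Hepatocyte markers summed to between 55890 and 100549 CPM at 6 mg/kg and between 87362 and 98048 CPM in vehicle livers, and neuron markers to at most 46.7 and 40.8 CPM. Stellate cell markers summed to 315 and 332 CPM in animals 55 and 56, to between 138 and 206 CPM in the other 4 and to between 240 and 376 CPM in vehicle livers. Kupffer cell markers, those of liver macrophages, summed to 92.9 to 163 CPM in vehicle livers and, with rising dose, to 170 to 250, 144 to 291 and 124 to 275 CPM. The 4 genes of the microglia list summed to 31.9 to 41.4 CPM in vehicle livers and 43.8 to 71.4 CPM at 6 mg/kg. The rank correlation with GC content was -0.02 and 0.09 in animals 55 and 56 and 0.10 to 0.24 in the other 4. The part of these measures in the split and in the dose differences was not tested.

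**Figure D3:**
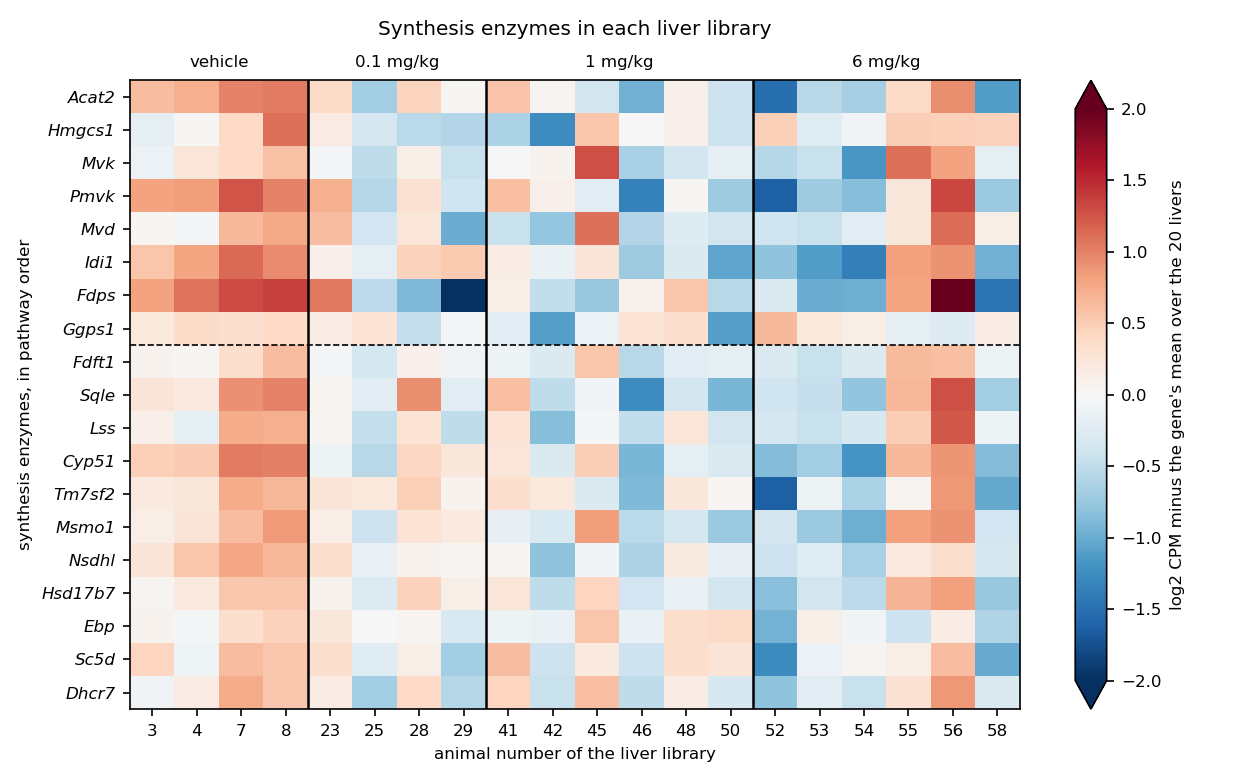
Colour gives log2 CPM minus the gene's mean over the 20 livers, for 19 enzymes (rows, mevalonate steps above the dashed line) in each library (columns, by dose and animal number). Columns 55 and 56 at 6 mg/kg are red for most enzymes like vehicle columns 7 and 8, and columns 52, 53, 54 and 58 are mostly blue.

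Of the regulators in liver, Srebf2 had log2 differences with rising dose of -0.30 ± 0.23, 0.02 ± 0.21 and 0.06 ± 0.21, and Scap of -0.38 ± 0.24, -0.14 ± 0.22 and -0.20 ± 0.22 in the same order. Insig1 ranged from 412 to 699 CPM in vehicle livers and from 240 over a median of 325 to 1048 CPM at 6 mg/kg, where animals 55 and 56 were again highest at 602 and 1048 CPM. Insig2 read 99.3, 103, 122 and 189 CPM in vehicle livers, 67.8, 72.3, 78.2 and 82.5 CPM at 0.1 mg/kg, 79.6 over a median of 105 to 141 CPM at 1 mg/kg and 65.1 over 77.9 to 149 CPM at 6 mg/kg. Its log2 differences were -0.77 ± 0.26, -0.24 ± 0.24 and -0.46 ± 0.23 (edgeR adjusted p = 0.99, 0.77 and 0.23), and the last was 0.25 ± 0.33 with the clock ratio as covariate.

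Of the genes of uptake and storage in liver, Stard4 had the smallest p at 6 mg/kg. It read 85.7, 87.4, 106 and 126 CPM in vehicle livers, 82.9, 97.8, 100.2 and 116 CPM at 0.1 mg/kg, 59.4 over a median of 78.3 to 129 CPM at 1 mg/kg and 59.4 over 63.1 to 114 CPM at 6 mg/kg. Animals 55 and 56 were the high ones at 106 and 114 CPM, with the other 4 between 59.4 and 63.6 CPM. The log2 difference was -0.38 ± 0.22 (edgeR adjusted p = 0.29). Mylip, Soat1 and Npc1 had log2 differences of -0.39 ± 0.30, 0.04 ± 0.37 and 0.10 ± 0.17.

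Of the 26 members with an entry in the RefSeq promoter table (GRCm38.p6), 22 hold CCAAT, the core of the NF-Y site, in the 250 bases before a start, against 37.5% of all genes in the table. The Sp1 motif GGGCGG was in 20 of 26, against 35.4% of genes, and the E-box CACGTG in 6 of 26, against 6.86%. TCACNCCAC, 1 form of the sterol response element, was in 1 of 26 (Hmgcs1), against 1.22% of genes. No other form was searched, so lack of this match does not mean lack of an element. Both strands were searched. CACGTG reads the same on both strands, and none of the 4 motifs contains another. A match describes letters and not a bound site.

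Promoter stretches of 4 enzymes are shown, with Hmgcs1 chosen for its match to TCACNCCAC. Idi1 and Nsdhl are shown for paired CCAAT boxes ahead of genes with low values in most dosed livers. Acat2, low in the same livers, is shown as one without CCAAT. Capitals mark TCACCCCAC and CCAAT or its reverse complement ATTGG. The Hmgcs1 stretch is chr13:119690102-119690322, Idi1 chr13:8885486-8885605, and Nsdhl chrX:72918401-72918520, all on the + strand, and Acat2 is chr17:12960726-12960845 on the - strand.

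Hmgcs1: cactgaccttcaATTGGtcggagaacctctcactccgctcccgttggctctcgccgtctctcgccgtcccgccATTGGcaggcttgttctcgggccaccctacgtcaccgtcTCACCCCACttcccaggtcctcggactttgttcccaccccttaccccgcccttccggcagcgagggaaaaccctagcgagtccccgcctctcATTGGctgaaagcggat
Idi1: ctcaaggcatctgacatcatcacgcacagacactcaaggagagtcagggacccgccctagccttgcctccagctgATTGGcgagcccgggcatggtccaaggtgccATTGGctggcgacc
Nsdhl: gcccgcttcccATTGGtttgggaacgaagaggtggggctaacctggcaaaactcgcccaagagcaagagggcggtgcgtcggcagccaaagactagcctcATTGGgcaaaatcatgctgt
Acat2: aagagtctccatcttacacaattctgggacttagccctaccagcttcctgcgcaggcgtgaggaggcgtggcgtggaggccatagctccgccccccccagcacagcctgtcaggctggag

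In prefrontal cortex, edgeR and DESeq2 each called 0 members at the 3 doses, beside 0% of all genes at each dose. From the highest dose to the lowest there were 3, 3 and 5 of 29 members at an unadjusted p under 0.05, against 9.27%, 8.29% and 6.43% of all genes. Median log2 differences of the members were -0.13, -0.09 and -0.07, against 0.00, 0.00 and 0.01 over all genes. The enzymes' 95% intervals at 6 mg/kg all lay between -0.55 and 0.41, where those in liver lay between -2.01 and 0.64. Between 6 and 0.1 mg/kg and over the dose ranks 0 members were called by either tool as well, beside 0.108% and 0.0202% of all genes. At an unadjusted p under 0.05 edgeR gave 1 and 3, against 10.1% and 9.79% of all genes.

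Sqle had the smallest p at 6 mg/kg. It read 71.6, 85.4, 85.6 and 87.9 CPM in vehicle cortex, 60.5, 67.4, 75.8, 76.2 and 76.4 CPM at 0.1 mg/kg, 61.9 over a median of 71.2 to 82.3 CPM at 1 mg/kg and 64.3 over 68.5 to 78.1 CPM at 6 mg/kg. Only vehicle animal 8 lay within the dosed range. The log2 difference at 6 mg/kg was -0.24 ± 0.09 (edgeR adjusted p = 0.42).

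Srebf2 read 345, 351, 369 and 404 CPM in vehicle cortex, 325, 347, 348, 371 and 375 CPM at 0.1 mg/kg, 289 over a median of 329 to 378 CPM at 1 mg/kg and 306 over 319 to 343 CPM at 6 mg/kg. All 6 libraries at 6 mg/kg lay below all 4 vehicle libraries for Srebf2 and for Dhcr7, which reduces 7-dehydrocholesterol, beside 1.92% of all genes lower without overlap. The log2 differences were -0.20 ± 0.08 and -0.24 ± 0.10 (edgeR adjusted p = 0.43 and 0.46). Cortical neuron markers summed to 1750 to 2161 CPM in vehicle cortex and 1279 to 1892 CPM at 6 mg/kg. Oligodendrocyte markers summed to 2262 to 3410 CPM and 3060 to 3606 CPM in the same order. The rank correlation with GC content was -0.34 to 0.25 and -0.59 to 0.26. The part of these measures in the 2 differences was not tested. Without overlap at 0.1 mg/kg were Insig1 (-0.40 ± 0.11, edgeR adjusted p = 0.74) and Abca1 (-0.38 ± 0.18), both lower, beside 1.14% of all genes. Animals 28 and 24, lowest for Abca1 at 0.1 mg/kg, had astrocyte marker sums of 2131 and 2275 CPM, against 2881 to 2952 CPM in the rest of that group. Animals 45 and 55, lowest for Abca1 at 1 and 6 mg/kg, also had the lowest astrocyte sums of their groups (1992 and 2045 CPM). The part of these markers in the Abca1 values was not tested.

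Hmgcs1 in cortex read 268, 305, 330 and 348 CPM in vehicle libraries, 248, 259, 281, 287 and 319 CPM at 0.1 mg/kg, 251 over a median of 296 to 321 CPM at 1 mg/kg and 253 over 277 to 303 CPM at 6 mg/kg, overlapping throughout (log2 difference -0.16 ± 0.09, edgeR adjusted p = 0.59). Npc1 read 65.9, 68.2, 69.6 and 72.0 CPM in vehicle libraries, 58.4, 62.8, 67.3, 67.6 and 71.1 CPM at 0.1 mg/kg, 53.01 over 59.4 to 66.9 CPM at 1 mg/kg and 49.98 over 65.4 to 75.4 CPM at 6 mg/kg. Abca1 read 31.4, 31.7, 33.7 and 34.0 CPM, then 16.9, 20.6, 26.5, 30.0 and 31.4 CPM at 0.1 mg/kg, 21.8 over 28.2 to 31.9 CPM at 1 mg/kg and 18.8 over 31.1 to 37.5 CPM at 6 mg/kg. The log2 difference of Abca1 at 6 mg/kg, -0.12, was 0.02 with the GC and length offset. Npc1l1, a sterol importer best known from the intestine, had between 9 and 15 counts per vehicle library in cortex, too few for a firm value.

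Of the 28 members in striatum 0 were called at any dose by edgeR or DESeq2, beside 0% of all genes at each dose. An unadjusted p under 0.05 was reached, from the highest dose to the lowest, by 5, 4 and 1 members, against 15.7%, 7.36% and 2.53% of all genes. All 11 enzymes from squalene to cholesterol had means above vehicle at 1 mg/kg (median log2 difference 0.10), where 51.6% of all genes lay above 0. At the highest dose 8 of them lay below 0 and at the lowest 10, with medians of -0.07 and -0.09. Between 6 and 0.1 mg/kg 0 members were called by either tool, beside 2.91% of all genes, and 6 had an unadjusted p under 0.05, against 22.3%. Over the dose ranks 0 were called by either tool, beside 0% of all genes, and 2 had an unadjusted p under 0.05, against 13.1%.

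Hmgcs1 had the smallest p at 6 mg/kg in striatum. It read 171, 205, 208 and 213 CPM in vehicle libraries, 168, 178, 186, 186 and 203 CPM at 0.1 mg/kg, 201 over a median of 230 to 268 CPM at 1 mg/kg and 146 over 164 to 186 CPM at 6 mg/kg. Vehicle animal 7 lay within the 6 mg/kg range. Log2 differences from vehicle were 0.24 ± 0.09 at 1 mg/kg and -0.27 ± 0.09 at 6 mg/kg (edgeR adjusted p = 0.68 and 0.21). Oligodendrocyte markers summed to between 4384 and 6622 CPM in vehicle striatum and between 6602 and 9240 CPM at 6 mg/kg. At 1 mg/kg they summed to between 4631 and 11110 CPM. Cortical neuron markers had medians of 346, 447 and 205 CPM in vehicle libraries and at 1 and 6 mg/kg. The rank correlation of a library's gene deviations with GC content was -0.41, -0.22, 0.25 and 0.39 in vehicle libraries. It was 0.29 to 0.43 at 6 mg/kg, and at 1 mg/kg it was -0.57 to -0.18 in 5 libraries and 0.28 in animal 50. The part of these measures in the Hmgcs1 values was not tested.

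Tm7sf2 was the member with the largest log2 difference above 0 in striatum at 6 mg/kg. It read 9.34, 12.5, 13.4 and 14.8 CPM in vehicle libraries, 9.57, 11.3, 12.5, 14.3 and 14.7 CPM at 0.1 mg/kg, 9.42 over a median of 12.3 to 18.6 CPM at 1 mg/kg and 13.3 over 16.4 to 24.05 CPM at 6 mg/kg. The log2 difference was 0.51 ± 0.19 (edgeR adjusted p = 0.23). Its exons share 12.1% of their bases with Vps51 on the same strand, so part of its reads may belong there.

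Stard4 in striatum read 25.5, 31.4, 32.1 and 34.4 CPM in vehicle libraries, 21.8, 27.0, 27.5, 28.9 and 29.1 CPM at 0.1 mg/kg, 29.1 over a median of 33.1 to 33.9 CPM at 1 mg/kg and 21.9 over 26.5 to 28.99 CPM at 6 mg/kg (log2 difference -0.23 ± 0.10, edgeR adjusted p = 0.28). Srebf2 read 309, 317, 382 and 410 CPM in vehicle libraries, 314, 326, 329, 330 and 349 CPM at 0.1 mg/kg, 270 over 297 to 407 CPM at 1 mg/kg and 272 over 337 to 339 CPM at 6 mg/kg. Abca1 read 43.0, 44.3, 47.6 and 55.9 CPM, then 39.7, 44.4, 45.97, 47.9 and 52.7 CPM at 0.1 mg/kg, 36.5 over 42.02 to 53.01 CPM at 1 mg/kg and 20.02 over 46.3 to 51.9 CPM at 6 mg/kg. Both overlapped vehicle at each dose. Insig1 was the 1 member without overlap at 0.1 mg/kg (59.8 to 73.8 CPM against 78.0 to 82.1 CPM in vehicle libraries), beside 0.503% of all genes lower without overlap. Of the 47 other pathway genes tested, 1 was called between 6 and 0.1 mg/kg, beside 2.91% of all genes. It was Tmub1, an endoplasmic reticulum protein of the degradation list (log2 difference 0.63 ± 0.16, edgeR adjusted p = 0.037). Tmub1 stood at 45.6 CPM in animal 54, at 21.2 to 27.99 CPM in the other 5 libraries at 6 mg/kg and at 16.7 to 19.3 CPM at 0.1 mg/kg. Without animal 29 no gene was called in that comparison by edgeR. In striatum at 6 mg/kg animal 54 was also the lowest for Hmgcs1, Stard4, Srebf2 and Abca1 and the highest for Tm7sf2. Its astrocyte markers summed to 1266 CPM, against 1943 to 2133 CPM in the rest of that group. The part of these markers in its values was not tested.

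The plot of differences at 6 mg/kg sets the 3 tissues side by side. Tests of whether the 6 mg/kg effect differed between tissues called 0 of 29 members for liver against prefrontal cortex, 0 of 30 for liver against striatum and 0 of 29 for striatum against prefrontal cortex by edgeR and by DESeq2. All genes gave 0.899%, 0.0277% and 0%. At an unadjusted p under 0.05 edgeR gave 2, 4 and 1 members, against 20%, 14.3% and 6.43% of all genes. Nsdhl had the smallest p for liver against prefrontal cortex (difference of log2 differences -0.71 ± 0.25, edgeR adjusted p = 0.14). Without animal 56, 1 member (Pmvk) was called there, in a fit that called 392 genes in all against 129 with every library.

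**Figure D4:**
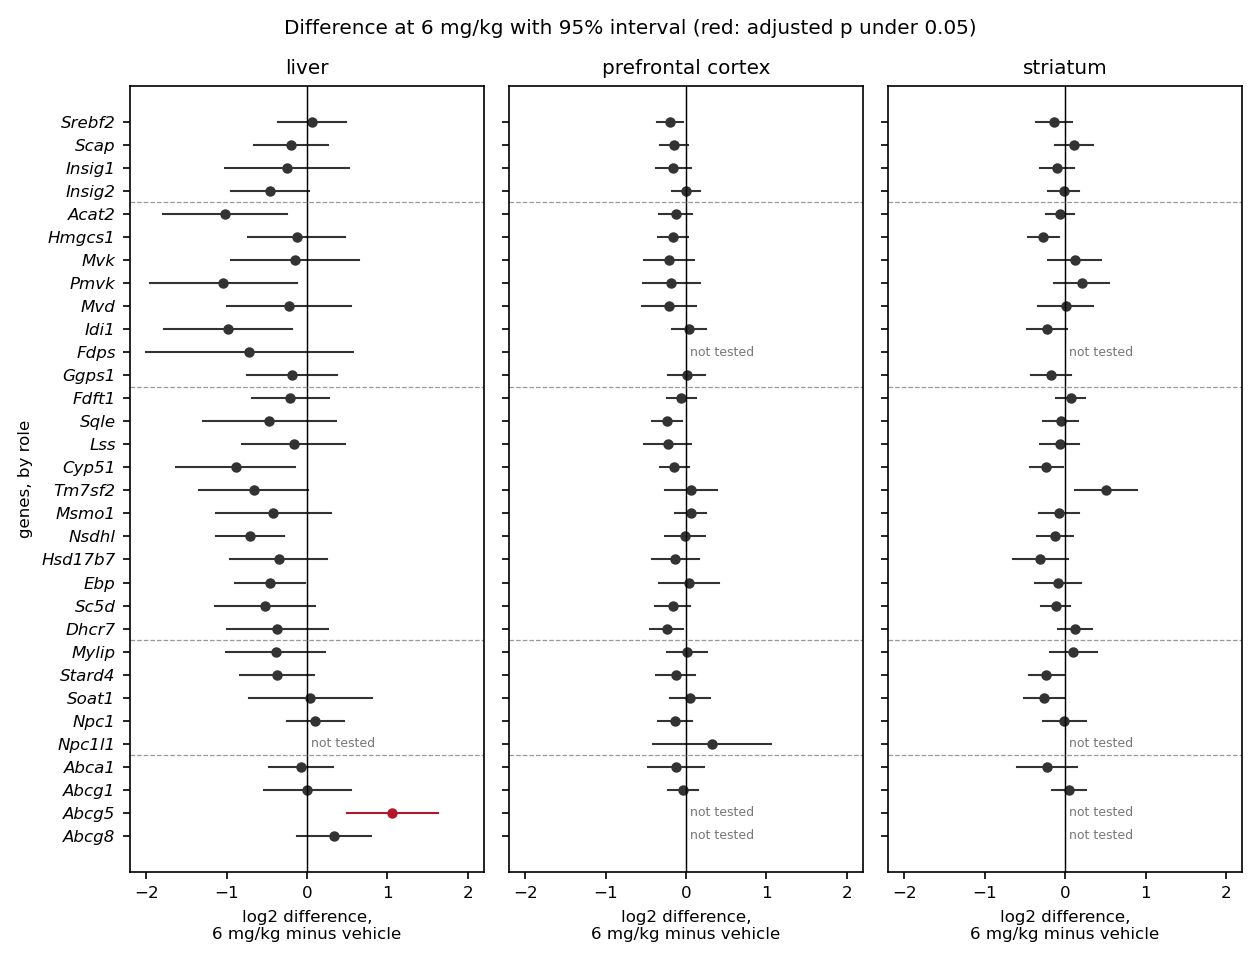
Log2 difference between 6 mg/kg and vehicle with its 95% interval for each gene (rows, by role) in 3 tissues. Abcg5 in liver (red, 1.06) is the single value with an adjusted p under 0.05, and the liver intervals are wider than those of both brain regions.

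As one value per library, the mean deviation of the enzymes ranged from -0.13 to 0.17 in prefrontal cortex and from -0.15 to 0.21 in striatum (18 enzymes each), against -0.65 to 0.84 in liver. The median coefficient of variation of an enzyme within a dose group stayed between 9.46% and 14.1% in the brain regions. The plot of this mean by dose shows the split among livers at 6 mg/kg and narrow, overlapping groups in both brain regions.

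**Figure D5:**
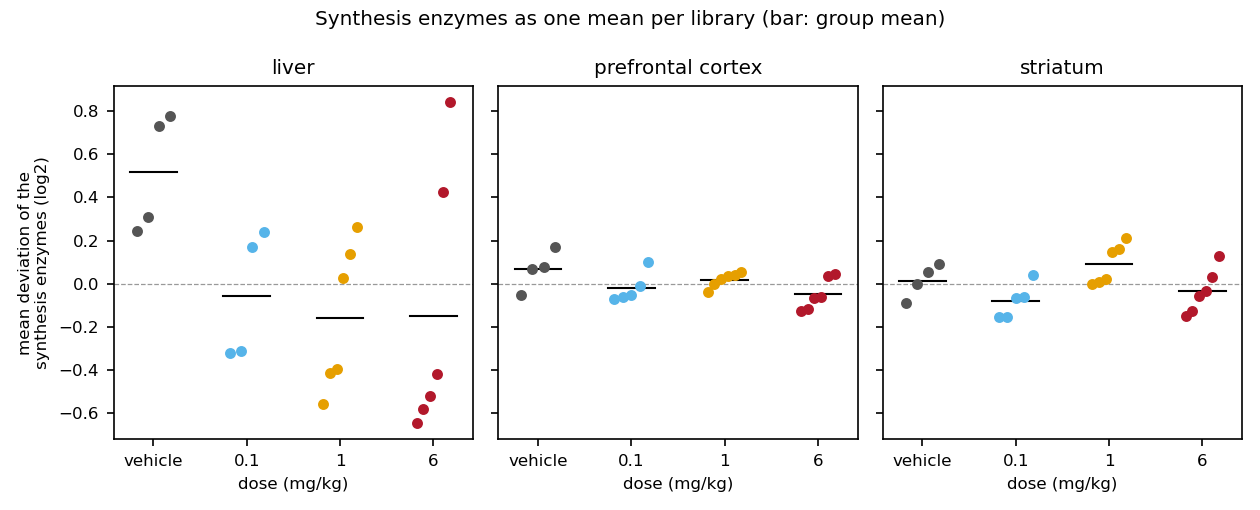
Mean log2 deviation of the synthesis enzymes from their tissue mean in each library (points) by dose, with the group mean as a bar. In liver 1 point at 6 mg/kg (0.42) lies among the vehicle points, which run from 0.25 to 0.78, 1 (0.84) lies above them and 4 lie at or below -0.42, while brain points all lie between -0.15 and 0.21.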

How the data were processed

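The deposited tables hold whole-number read counts per gene by Entrez identifier for each library, made by the authors. HISAT2 and FastQC and the build mm10 are named in the submitters' processing notes. The counter and its use of strand are not given in the sources used here. RNA was cleaned on columns after TRIzol lysis, per the labels' protocols. Every listed gene has at least 10 counts over the libraries of its table, and gene names matched 99.95% or more of the identifiers.

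From the counts, edgeR 4.0.16 (R 4.3.3) was run per tissue over all dose groups with TMM factors, filterByExpr and the robust quasi-likelihood test, with Benjamini-Hochberg adjustment over 12968, 14838 and 15118 genes in liver, prefrontal cortex and striatum. Standard errors are the log2 difference divided by the root of F, and intervals are 95% from the test's degrees of freedom. Log2 CPM used a prior count of 2. Pairs of tissues were fitted on genes listed in both. The fits were tested on simulated counts. For the dose comparisons 200 genes were changed by amounts rising with dose rank. In liver 40.5% of them were called at 6 mg/kg against vehicle and 13.5% at 6 against 0.1 mg/kg. At 6 mg/kg against vehicle 75.5% were called in prefrontal cortex and 76% in striatum. Changed genes in liver can therefore go uncalled. The clock ratio is log2 CPM of Dbp minus that of Arntl.

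The members and lists were chosen with earlier results of these data known. Values are given in full for members called in a dose comparison or slope and for the member of each role group with the smallest p at 6 mg/kg in each tissue. Named between vehicle tissues are the 3 largest differences each way, and of other pathway genes those called in a dose comparison. Further named members were picked after their values were seen. Animal numbers recur across tissues, but same-numbered libraries were not taken as pairs. No 2 libraries of a group agreed within sampling noise. Alternatives were DESeq2 1.42.0, median-ratio size factors, other filters, a surrogate variable (sva 3.50.0), a GC and length offset, the clock ratio, a slope over mg/kg, the replicate block and leaving out each library.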

Additional observations from a re-analysis of the deposited data

Results flagged for a closer look

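In 72 groups of 4 to 6 libraries, 3 had a single library set apart by a wide gap. Chance alone gives about 1 in 20, or 3.6. In vehicle prefrontal cortex, Sqle was lowest in animal 8 at 71.6 CPM. In prefrontal cortex at 6 mg/kg, Srebf2 was highest in animal 52 at 343.1 CPM. In striatum at 1 mg/kg, Srebf2 was highest in animal 50 at 407.1 CPM, the library with the largest sum of cortical neuron markers (1606 CPM). The part of those markers in the value was not tested.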

How the results depend on the processing

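The counts of called members changed as follows. For liver at 6 mg/kg against vehicle (1 member), the count was 0 with the 2 groups fitted alone, with the clock ratio as covariate and with the GC and length offset, 2 with DESeq2, and 0 to 7 when single libraries were left out. For the liver slope over dose rank (2 members), it was 0 with the clock ratio, 1 with a surrogate variable, with the GC and length offset, without a filter on low counts and with a slope over mg/kg, and 0 to 7 when single libraries were left out. DESeq2 called 3. For the tests between tissues of the 6 mg/kg effect (0 members), leaving out single libraries gave 0 to 1 for liver against prefrontal cortex. In striatum, 1 member (Tm7sf2) was called between 6 and 0.1 mg/kg with a surrogate variable and over dose with a slope over mg/kg, where there were 0. In vehicle mice 4 to 11 members were called between striatum and prefrontal cortex (11 with all libraries) when single libraries were left out. The cause of these changes was not tested.

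At 6 mg/kg 3 differences changed sign: Insig2 in liver (-0.46) to 0.25 with the clock ratio as covariate, and Abca1 in prefrontal cortex (-0.12) to 0.024 and in striatum (-0.23) to 0.0020 with the GC and length offset, none of them called. The cause was not tested. Same-numbered animals were checked for pairing. Their gene deviations correlated by 0.0063 on average between liver and prefrontal cortex, 0.0052 between liver and striatum and 0.11 between striatum and prefrontal cortex, where 12 of 21 exceeded 0.1 and 11 of 21 were closest to their own number. With the replicate block, 0 members were called in the 3 tests between tissues, 28 between liver and prefrontal cortex and 12 between striatum and prefrontal cortex in vehicle mice. Depth limits Fdps, Soat1 in liver and Npc1l1, which had few counts, and 4 libraries limit each comparison with vehicle.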

Other observations

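The spread of the enzymes in liver was wide between vehicle animals as well. Vehicle animal 8 was the highest of the 4 for 11 of the 19 enzymes and animal 7 for the other 8, while animal 3 was the lowest for 13. At 0.1 mg/kg animal 28 was highest for 10 enzymes and animal 25 lowest for 11, and at 1 mg/kg animal 45 was highest for 10 and animal 46 lowest for 9. At 6 mg/kg animal 56 was highest for 15. Such orders were not computed over all genes, so they are not shown to be particular to the enzymes. Red blood cell markers summed to 3067 and 1174 CPM in vehicle livers 8 and 7, against 59.9 and 47.8 CPM in animals 4 and 3. At 1 mg/kg they summed to 2641 CPM in animal 45 and to between 45.5 and 348 CPM in the other 5. At 0.1 mg/kg animal 23, with the highest enzyme mean of its group (0.24, against 0.17 in animal 28), had 473 CPM and the other 3 had 44.1 to 75.7 CPM. In these 3 groups the liver with the highest enzyme mean had the highest sum. At 6 mg/kg animal 56 had 125 CPM, within the 69.3 to 230 CPM of its group. The part of these markers in the enzyme levels was not tested.

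Abcg5 and the enzymes differed in their order over the livers at 6 mg/kg. The 2 livers with the highest enzyme means, animals 56 and 55, had the lowest Abcg5 values of the group (129 and 139.5 CPM), and animal 52, with the lowest enzyme mean, had the highest (290 CPM). In vehicle livers the order ran the other way, with animals 7 and 8 high in both. These orders were noticed in the data and were not tested.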
